A study of Mus musculus with 12 samples.

Results

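Cd4, Cd8a, Cd8b1, Cd3e, Cd3d, Cd3g, Cd247 and Il7r encode surface proteins by which developing T cells are recognised and receive signals. All called ChIP-seq peaks were collected in 5 mm9 windows around these 8 genes. The windows are defined by position and were chosen with earlier results of these data known. They are Cd4 (chromosome 6, 124.78 to 124.87 Mb), Cd8a with Cd8b1 (chromosome 6, 71.24 to 71.36 Mb), Cd3e with Cd3d and Cd3g (chromosome 9, 44.77 to 44.86 Mb), Cd247 (chromosome 1, 167.69 to 167.84 Mb) and Il7r (chromosome 15, 9.4 to 9.5 Mb). A peak belonged to a window when it shared at least 1 bp with it. The windows held 19 of the 21883 peaks in the 7 deposited lists: 15 of 13016 floxed H3K9ac/K27ac peaks, 3 of 2225 Lck-Cre H3K9ac/K27ac peaks, 1 of 1719 floxed ZFAT peaks, and none of the 108 Lck-Cre ZFAT, the 2000 or 427 B6 ZFAT (called against input and against IgG) or the 2388 floxed H3K9me3 peaks.

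The lists come from thymocytes of mice aged 4 to 5 weeks. By the labels, all samples were fixed with formaldehyde and digested with MNase, with the same amounts and times throughout. Floxed animals (Zfatf/f) carry recombination sites at both Zfat alleles. Animals of the Lck-Cre line (Zfatf/f-LckCre) carry the same alleles and Cre expressed from Lck, an early T cell kinase gene, so that the floxed part of Zfat is meant to be lost in T cells; how much was lost cannot be read from peak lists. B6 animals (C57BL/6) have unmodified Zfat, and only ZFAT was profiled in them. Each combination of antibody and line was a single library, so every comparison is between libraries and has no replicate error, and the number of animals behind a library is not stated in the labels. ZFAT is a zinc-finger protein, H3K9me3 a histone mark of silenced chromatin, and H3K9ac/K27ac, detected with 1 antibody, a pair of acetylation marks found at active promoters and enhancers.

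CD4 and CD8 are the coreceptors that hold MHC molecules while the T cell receptor reads the bound peptide, CD8 being built from the chains encoded by Cd8a and Cd8b1. CD3 epsilon, delta and gamma and the zeta chain encoded by Cd247 carry the receptor's signal into the cell. The IL-7 receptor alpha chain encoded by Il7r relays a survival signal; in the thymus it is present before and after, but is low during, the stage at which cells carry both CD4 and CD8. Whole thymocytes mix these stages, and the lists do not tell them apart.

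Acetylation peaks were called in the windows of Cd4, Cd247 and Cd8 and in none of those of Cd3 and Il7r. RefSeq promoter sequences are shown for Cd247 and Cd8a, whose windows held a floxed acetylation peak, and for Cd3e and Il7r, whose windows held none. They are in GRCm38.p6, run 5′ to 3′ on the gene's strand, and cover 250 bases before and 50 after the start. The peaks are in mm9, so no peak was placed on these sequences. Capitals mark matches to the E-box (CANNTG) and the Runx motif (TGTGGT), searched on both strands.
Cd247 promoter (GRCm38.p6, chr1:165788431-165788730, plus strand): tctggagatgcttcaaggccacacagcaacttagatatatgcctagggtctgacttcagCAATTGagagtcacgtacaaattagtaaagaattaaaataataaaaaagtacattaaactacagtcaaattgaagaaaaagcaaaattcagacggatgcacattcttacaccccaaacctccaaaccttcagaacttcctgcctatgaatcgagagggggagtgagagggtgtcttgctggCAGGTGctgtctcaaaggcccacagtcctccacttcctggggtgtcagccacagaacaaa
Cd8a promoter (GRCm38.p6, chr6:71373177-71373476, plus strand): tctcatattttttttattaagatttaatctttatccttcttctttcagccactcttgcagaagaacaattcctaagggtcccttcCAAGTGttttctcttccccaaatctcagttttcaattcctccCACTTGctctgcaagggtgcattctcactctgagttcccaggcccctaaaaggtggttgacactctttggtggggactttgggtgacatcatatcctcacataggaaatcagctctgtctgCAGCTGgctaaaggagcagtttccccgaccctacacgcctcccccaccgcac
Cd3e promoter (GRCm38.p6, chr9:45009562-45009861, minus strand): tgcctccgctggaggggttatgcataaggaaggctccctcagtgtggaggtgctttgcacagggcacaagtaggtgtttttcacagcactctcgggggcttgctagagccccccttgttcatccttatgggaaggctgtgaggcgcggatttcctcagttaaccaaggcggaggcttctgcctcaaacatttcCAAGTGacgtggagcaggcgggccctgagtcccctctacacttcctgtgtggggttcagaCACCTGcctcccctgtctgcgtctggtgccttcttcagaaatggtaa
Il7r promoter (GRCm38.p6, chr15:9529827-9530126, minus strand): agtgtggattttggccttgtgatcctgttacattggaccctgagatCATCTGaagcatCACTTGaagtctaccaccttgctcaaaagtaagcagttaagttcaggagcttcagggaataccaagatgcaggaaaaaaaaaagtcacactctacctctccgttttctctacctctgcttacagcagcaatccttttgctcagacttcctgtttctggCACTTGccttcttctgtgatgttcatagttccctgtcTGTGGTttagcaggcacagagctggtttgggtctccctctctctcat
Each of the 4 holds an E-box, as do 72.3% of the 32851 RefSeq promoters of this length, and the Il7r promoter alone among them holds the Runx motif, found in 16.8%. The 2 kinds of match did not overlap each other. Cd247, Cd8a and Il7r have 3, 3 and 1 CpG dinucleotides, against a median of 7 over all promoters, and Cd3e has 8. Whether CpG number goes with called acetylation was not tested, since no peak was placed on a promoter. Entries were found for 6 of the 8 genes, and for neither Cd4 nor Cd8b1. The sequences of Cd3d and Cd3g, with 1 and 4 CpG dinucleotides, are not printed.

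**Figure D1:**
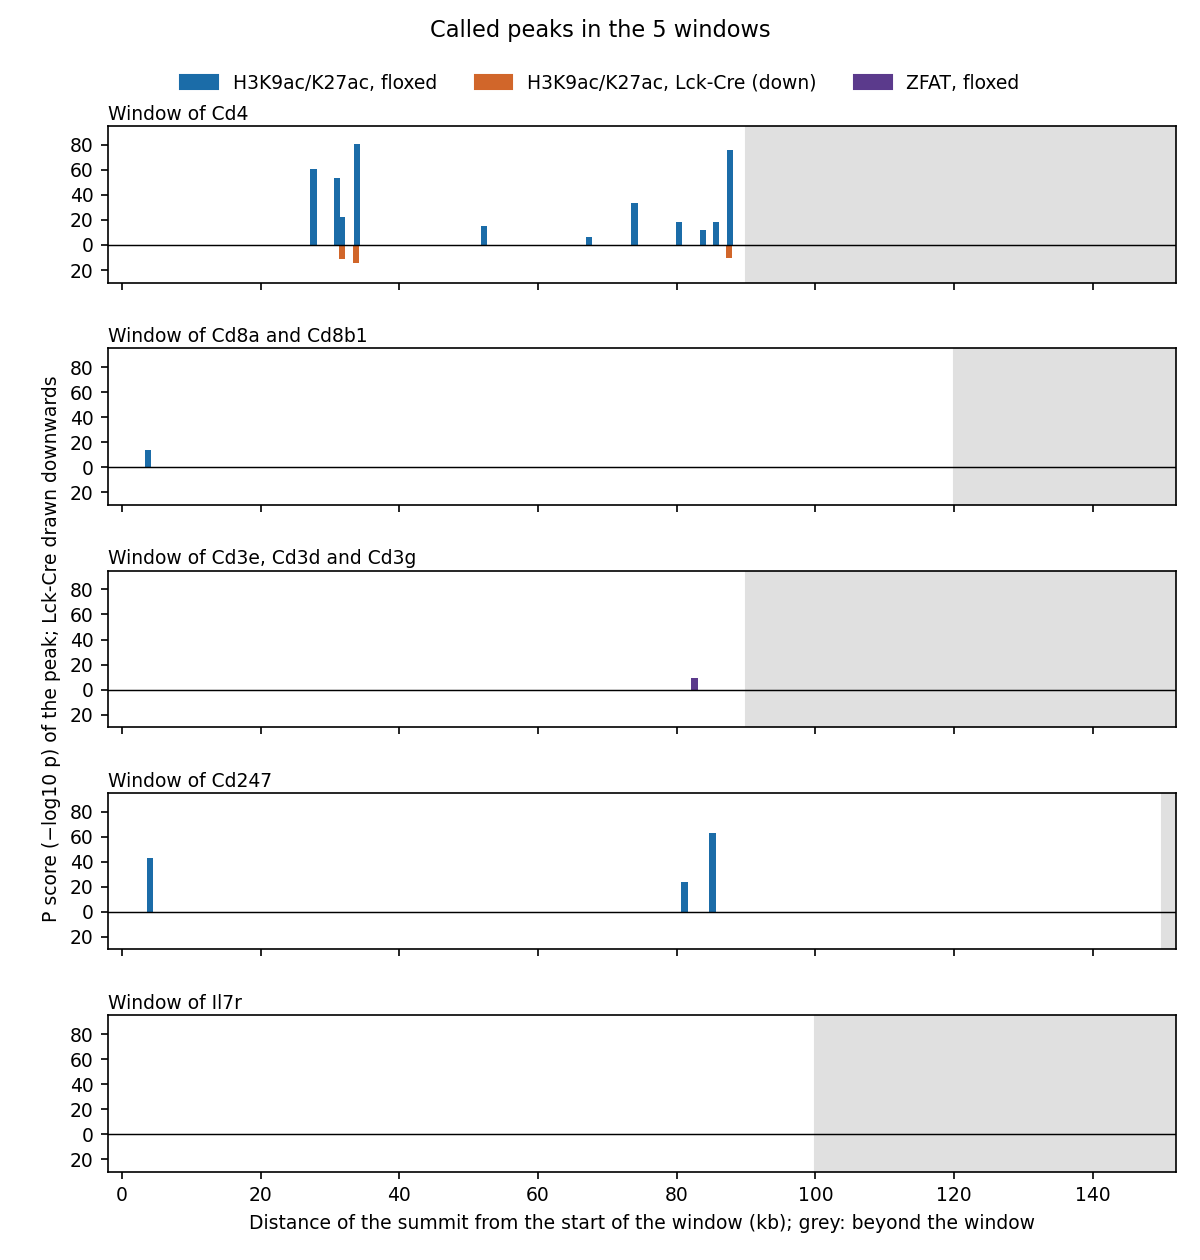
Called peaks along the 5 windows, drawn as bars at the summit, with the distance from the window's start in kb on the horizontal axis and the P score of the peak on the vertical axis (Lck-Cre acetylation drawn downwards). The 11 floxed and 3 Lck-Cre acetylation peaks of the Cd4 window stand beside 3 floxed peaks at Cd247, 1 at Cd8, a single ZFAT peak at Cd3 and no peak at Il7r.

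In the following, P score is the authors' −log10 p of a peak and fold their ratio of ChIP to local background. Pileup is the number of fragments stacked at the summit, which was inferred from the fold and the P score and is given with an exact Poisson 95% interval for counting error only. The inferred library sizes were about 2190000 fragments for floxed and 1340000 for Lck-Cre acetylation, and between 632000 and 2230000 for the other lists.

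The coreceptor gene Cd4 had the window with the most acetylation peaks. It held 11 floxed peaks in 90 kb, covering 3768 bp. Of the 28562 adjacent stretches of this length along the chromosomes, 44 (0.154%) held 11 or more floxed acetylation peaks and 77.5% held none. The stretches were taken with or without genes, so they do not show how usual such a count is around genes. In RefSeq's gene order Cd4 lies between Gpr162 and Lag3, the latter an inhibitory receptor of T cells. An mm9 annotation was not used here, so peaks are described by position and are not assigned to Cd4 or a neighbour.

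The 11 peaks lay in a group of 4 in the lower part of the window and a looser series of 7 above it, separated by 18060 bp without a peak. The strongest peak of the window belonged to the lower group, at chr6:124813586-124814050, with a P score of 80.8, a fold of 12.5 and a pileup of 105 (interval 85.9 to 127). Only 5.50% of all floxed acetylation peaks had a higher P score. The next peak by score closed the upper series at chr6:124867171-124868021 and was the longest, at 851 bp, with a P score of 75.8, a fold of 16.4 and a pileup of 82 (65.2 to 102). The third, at chr6:124807195-124807766, had a P score of 60.7, a fold of 13.1 and a pileup of 74 (58.1 to 92.9). The intervals of these 3 pileups overlapped, and differences between the peaks were not tested. The other 8 were weaker, with P scores from 6.72 to 53.1. A further floxed peak lay 11.5 kb above the window, with a pileup of 105 (85.9 to 127), so called acetylation continued beyond the window's upper edge.

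The Lck-Cre list had 3 acetylation peaks in the Cd4 window, and each overlapped a floxed peak. The first, at chr6:124811614-124811775, had a fold of 7.20 and a pileup of 12 (6.20 to 21.0), against a fold of 10.6 and a pileup of 24 (15.4 to 35.7) in floxed thymocytes at chr6:124811608-124811779. The summits were 2 bp apart and the intervals of the pileups overlapped. The second, at chr6:124813598-124813932, had a fold of 5.77 and a pileup of 27 (17.8 to 39.3), under the strongest floxed peak of the window, whose pileup was 105. The third, at chr6:124867473-124867920, had a fold of 4.74 and a pileup of 22 (13.8 to 33.3), against 82 in floxed thymocytes. At the latter pair of sites the intervals of the 2 libraries did not overlap, before any allowance for depth.

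At each of the 3 shared sites the Lck-Cre fold was the lower, as it was at 96% of the 1670 shared pairs in the whole lists. Scaled to the inferred depths, the Lck-Cre pileup divided by the floxed was 0.42 at the strongest site, 0.44 at the upper site and 0.82 at the narrow site with summits 2 bp apart. Over all shared pairs the median ratio was 0.48, with quartiles of 0.41 and 0.58. The strongest and the upper site lay within the middle range of all pairs, and the narrow site lay above 93.9% of them. A pair exists only where the Lck-Cre peak passed the caller, so weak floxed peaks with a low ratio are missing from the pairs. The rank of the narrow site, a weaker floxed peak, therefore cannot be read as a smaller change. Inferred control backgrounds at these sites were 1.35, 7.45 and 4.06 scaled fragments in the floxed list and 0.806, 3.86 and 3.86 in the Lck-Cre list, in the order of position. By the relation used here, (pileup + 1)/(background + 1), the fold is also lower in a shallower library at equal enrichment. The headers do not name the controls of these lists. A lower fold is thus not by itself a measured loss of acetylation.

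**Figure D2:**
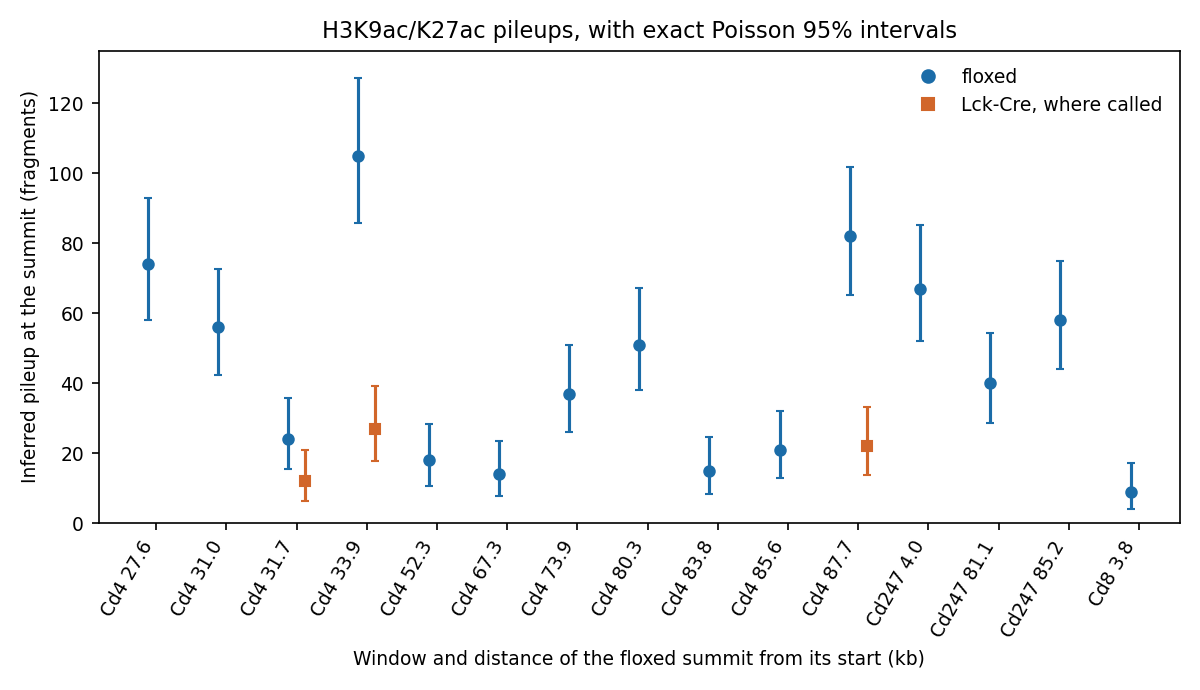
Inferred pileup (fragments, vertical axis) of the 15 floxed acetylation peaks of the windows, ordered by window and by the distance of the summit from the window's start in kb, with the overlapping Lck-Cre peak beside it where 1 was called; bars are exact Poisson 95% intervals and pileups are not scaled to depth. Lck-Cre pileups of 12, 27 and 22 stand beside floxed pileups of 24, 105 and 82 at Cd4, and the other 12 floxed peaks have no Lck-Cre peak.

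No Lck-Cre peak overlapped the other 8 floxed peaks of the Cd4 window. These included the peak with a P score of 60.7 and a neighbour at chr6:124810923-124811426 with a P score of 53.1, a fold of 15.4 and a pileup of 56 (42.3 to 72.7). This neighbour lay 181 bp from the narrow floxed peak that the Lck-Cre list did hold. The narrow shared peak, with a P score of 22.5, was exceeded in score by 3 floxed peaks of this window that were not called in Lck-Cre. These 3 lie in deciles 9 and 7 of P score in the floxed list (10 being the highest). Over the whole list, 26.7% of decile 9 and 10.8% of decile 7 were also called in Lck-Cre, so missing calls were usual at such scores. With peaks within 500 bp counted as shared, 4 of the 15 floxed peaks of the 5 windows were shared.

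Cd247, which encodes the zeta signalling chain, had 3 floxed acetylation peaks in 150 kb and no Lck-Cre peak. Of the 17132 stretches of this length, 9.64% held 3 or more floxed peaks and 89.6% held no Lck-Cre peak. The strongest, at chr1:167774970-167775342, had a P score of 62.9, a fold of 19.5, which 5.92% of the list exceeded, and a pileup of 58 (44.0 to 74.98). A neighbour 3721 bp below it, at chr1:167770958-167771248, had a P score of 23.8, a fold of 7.14 and a pileup of 40 (28.6 to 54.5). The last peak, at chr1:167693936-167694292, had a P score of 42.8, a fold of 8.75 and a pileup of 67 (51.9 to 85.1). It lay 76665 bp below the others and 3.94 kb from the window's lower edge, and RefSeq places Creg1 directly before Cd247, so it was not assigned to a gene. The nearest Lck-Cre acetylation peaks were 51.8 kb below and 92.0 kb above the window.

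The Cd8 window, with the genes of both CD8 chains, had 1 floxed acetylation peak in 120 kb and no Lck-Cre peak. Of all stretches of this length, 26.4% held 1 or more floxed peaks and 91.4% held no Lck-Cre peak. The Cd8 peak lay at chr6:71243685-71243854, 3.69 kb from the lower edge, with a P score of 14.2, a fold of 8.50 and a pileup of 9 (4.12 to 17.1), and 75.2% of the floxed list had a higher score. The remaining 116.1 kb of the window held no called peak of any list. Strong acetylation peaks lay outside the window on both sides. A floxed peak 17.8 kb below it had a fold of 21.9 and a pileup of 95 (76.9 to 116), with an Lck-Cre peak at the same place (fold 5.35, pileup 25, 16.2 to 36.9), and a floxed peak 29.8 kb above it had a fold of 20.5 and a pileup of 89 (71.5 to 110).

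The Cd3 and Il7r windows had no acetylation peak in either list, although Cd3e, Cd3d and Cd3g define the T lineage. RefSeq has these 3 genes side by side, in the order Cd3g, Cd3d, Cd3e. Among all stretches, with or without genes, 77.5% of those of 90 kb and 76.1% of those of 100 kb held no floxed acetylation peak. For Lck-Cre acetylation, 93.3% and 92.6% held none. How often this holds around genes active in thymocytes was not tested. At Cd3 the nearest floxed peaks lay 41.3 kb below the window (pileup 74, 58.1 to 92.9) and 86.4 kb above it (pileup 74, 58.1 to 92.9). The lower of them had an Lck-Cre peak at the same place (fold 2.94, pileup 26, 17.0 to 38.1). At Il7r the nearest floxed peaks lay 329 kb below and 900 kb above, farther than at any of the other 4 windows. A list of called peaks gives no level where none was called, so the acetylation of these genes under the caller's threshold is not known.

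**Figure D3:**
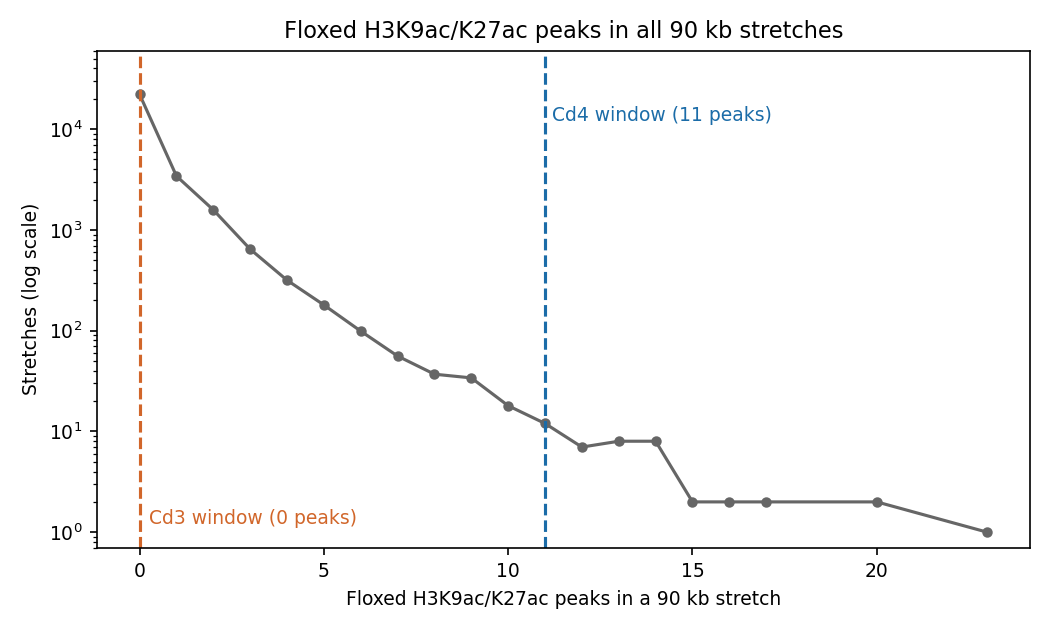
Number of adjacent 90 kb stretches of the chromosomes (vertical axis, log scale) by the number of floxed acetylation peaks they hold (horizontal axis). The Cd4 window, with 11 peaks, lies among the densest 0.154% of stretches, and the Cd3 window of the same length has none, like 77.5% of stretches.

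Across the windows, 3 of the 15 floxed acetylation peaks (20.0%, exact Clopper-Pearson 95% interval 4.33% to 48.1%) had an overlapping Lck-Cre peak, compared with 12.3% of the whole floxed list. The interval covers counting error only and holds the value of the whole list. It treats peaks as independent, although 11 of the 15 lie close together in the Cd4 window. With the floxed list cut to its 2225 strongest peaks, the length of the Lck-Cre list, 2 of 4 window peaks were overlapped, compared with 38.6% of the cut list. All 3 were in the Cd4 window, where they made up 3 of 11 (27.3%, 6.02% to 61.0%). From the other side, all 3 Lck-Cre peaks overlapped a floxed peak, as did 75% of the Lck-Cre list. In the whole list, recurrence in Lck-Cre ranged from 1.61% to 45.5% between deciles of P score, and was 26.7% in the decile below the highest. Both window peaks of the highest decile were called in Lck-Cre, none of the 3 in the next decile was, and 1 of 2 was in decile 5. Adding up the share for each peak's own decile gives 2.25 peaks for the 15, so the 3 called differ from it by less than 1 peak.

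**Figure D4:**
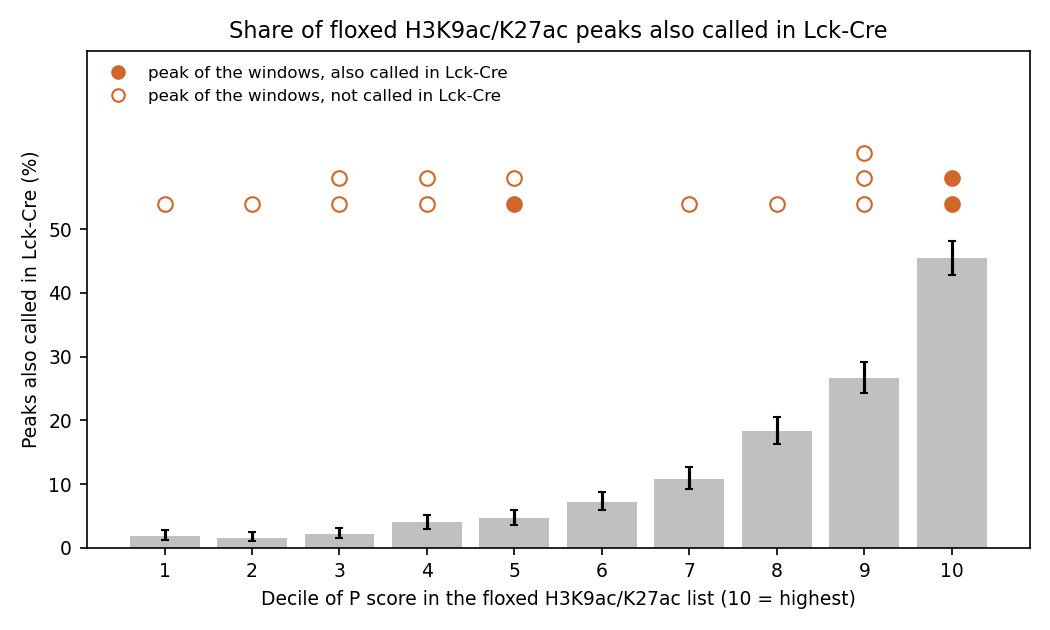
Percent of floxed acetylation peaks also called in Lck-Cre (vertical axis) by decile of P score (bars, with exact 95% intervals), and the 15 window peaks as points above their decile, filled where an Lck-Cre peak overlapped; the height of the points carries no value. The share is 45.5% in the highest decile and 1.92% in the lowest, and the filled points are 2 in decile 10 and 1 in decile 5.

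The 12 floxed peaks without an Lck-Cre counterpart had pileups of 9 to 74. Scaled by the inferred depths they would be 5.51 to 45.3 fragments in the Lck-Cre library. With the floxed control background scaled in the same way, the caller's threshold would need between 3 and 20 fragments at these sites. The scaled pileup reached that number at 11 of the 12 and missed it at chr6:124847226-124847385, the weakest peak of the windows, with a P score of 6.72 and a pileup of 14 (7.65 to 23.5). When the scaled pileups were multiplied by the median ratio of all shared pairs, 5 of the 12 reached it. That median comes from sites called in both lists, so the ratio at these 12 sites is not known. The needed numbers also rest on the scaled floxed background. At the 3 shared sites it was 0.828, 4.56 and 2.49 in the order of position, against 0.806, 3.86 and 3.86 inferred in Lck-Cre. Whether the lower depth accounts for the missing calls was not tested. The median P score of the 12 was 21.3 and that of the 3 shared peaks 75.8, beside 25.9 for the whole floxed list.

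The only ZFAT peak of the windows was in the floxed list, in the Cd3 window, at chr9:44852493-44852677. It had a P score of 9.28, a fold of 6.02 and a pileup of 6 (2.20 to 13.1) at an inferred control background of 0.163, and 43.7% of the floxed ZFAT list had a higher score. It lay 7.32 kb from the window's upper edge. No other ZFAT list had a peak there: the nearest B6 peak called against input was 202 kb away, and the nearest Lck-Cre ZFAT peak 9739 kb away. Its nearest acetylation peak was 93.7 kb away and its nearest H3K9me3 peak 333 kb. Of all 90 kb stretches, with or without genes, 5.55% held a floxed ZFAT peak. No Lck-Cre ZFAT peak was held by 99.7% of them, and no B6 peak by 93.7% (called against input) or 98.6% (against IgG). At the lengths of the other windows, 91.1% to 94.5% of stretches held no floxed ZFAT peak, so such absences were usual. In the whole floxed ZFAT list 25.8% of peaks were overlapped by floxed acetylation, 8.26% by a B6 peak called against input and 1.8% by an Lck-Cre ZFAT peak. Among floxed ZFAT peaks with a P score under 10, as here, 2.79% (29 of 1038, 1.88% to 3.99%) had such a B6 peak, so a peak of this strength without a B6 counterpart was usual.

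None of the 15 floxed acetylation peaks was overlapped by a ZFAT peak of any list, where 6.02% of the whole list was, and none by an H3K9me3 peak, where 0.807% was. The exact Clopper-Pearson 95% interval of 0 of 15, which treats neighbouring peaks as independent, reaches 21.8%. A difference from the whole list was thus not detectable in either case. For Il7r the nearest ZFAT peaks lay below the window in both lines with intact Zfat, at 75.4 kb in floxed (pileup 6, 2.20 to 13.1) and 77.5 kb in B6 thymocytes called against input (pileup 7, 2.81 to 14.4), but these did not overlap. With the same B6 library called against IgG, the nearest peak below the window was 1006 kb away. The nearest H3K9me3 peaks were 130 kb from the Cd4, 156 kb from the Cd8, 251 kb from the Cd3, 326 kb from the Il7r and 1030 kb from the Cd247 window. Among stretches taken with or without genes, 92.4% of those of 90 kb and 88.0% of those of 150 kb held no H3K9me3 peak.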

How the data were processed

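The data are peak lists in mm9 that the authors deposited, 1 per library and control. MACS is named in the submitters' processing notes for the B6 samples and in the names of all lists, with no version. The same notes list SAMtools 0.1.18, Trimmomatic 0.22 and CASAVA 1.8.1, and no aligner was found in the labels or headers. Per the file headers, the fragment length was 150 bp, the effective genome size 1870000000 bp and the p threshold 1e-05. The deposited P score and Q score are −log10 values, and the deposited fold is a ratio of ChIP over background; the Q score was not used.

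Of 12 samples, 6 had lists; the 6 input and IgG samples were not analysed here. Coordinates were read as 1-based and closed. Overlap meant at least 1 bp. Pileup and control background were solved from fold = (pileup + 1)/(background + 1) and the Poisson tail above the pileup. The tolerance was 0.0001 on the P score, and a solution was found for 100% of peaks below the P score ceiling. The solver was tested on values simulated from this same relation, which cannot show whether the caller used it. The lowest background of a list gave its inferred depth. Adjacent stretches ran from the first to the last peak of each of the autosomes and X. With 1 library per group there was no test. Python 3.11.15, pandas 2.3.3 and scipy 1.17.1 were used.

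The windows and genes were chosen with earlier results of these data known. Named were every Lck-Cre acetylation, ZFAT and H3K9me3 peak of a window and the 3 floxed acetylation peaks with the highest P score; others named, and the peaks outside the windows, were chosen after their values were seen. Cell type markers and other signalling genes need an mm9 annotation and were not analysed. Alternatives were a stricter score, other windows, other overlap rules, equal list lengths, the IgG control and low background.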

Additional observations from a re-analysis of the deposited data

How the results depend on the processing

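The counts were recomputed with peaks of P score 10 or more, by midpoint, with windows widened by 20 kb or narrowed by 10 kb, with other overlap rules, with equal list lengths, with the B6 list called against IgG and without ZFAT peaks at a control background of 20 or more. Of these 36 recomputed counts, 32 stayed within 1.5 times the reported count. The 32 include counts that were 0 and stayed at 0, and only counts were compared, not shares. The single floxed ZFAT peak went to 0 at P scores of 10 or more, since its score is 9.28, and to 0 in narrowed windows, since it lies 7.32 kb from an edge. The 15 floxed acetylation peaks became 9 in narrowed windows, and 4 when the floxed list was cut to the length of the Lck-Cre list; 2 of these 4 had an Lck-Cre peak, against 38.6% of the cut list. The calls with the fewest fragments, 6 for the ZFAT peak and 9 for the acetylation peak of the Cd8 window, carry a large counting error. Scaled to the Lck-Cre depth, the Cd8 peak would be 5.51 fragments, against 3 needed by the caller if the floxed background is scaled in the same way. Having 1 library per group gives no replicate error. No paired analysis was possible because each group had a single library.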
